A study of Drosophila melanogaster with 6 samples.

Results

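Peaks at most 1000 bp wide with a score of at least 100 on Uextra, the collection of small unplaced scaffolds of release 5 of the Drosophila melanogaster genome, numbered 2803 of the 13745 peaks in the list, or 20.4%. They were chosen by sequence name, width and the score that the authors deposited, so their number, widths and scores are descriptions and are given with no test. The list comes from a chromatin immunoprecipitation sequencing (ChIP-seq) experiment with 3 ChIP libraries, for which the label gives a monoclonal mouse antibody against tango, and 3 input libraries, made from chromatin without immunoprecipitation. All 6 libraries came from wandering larvae at L3, the last larval instar, of the Y cn bw sp strain and of unknown sex. The genotype of both groups has the alleles y[1] and oc[R3.2], then Gr22b[1] and Gr22d[1] with cn[1] and CG33964[R4.2], also bw[1] with sp[1], and finally LysC[1] and lab[R4.2] with MstProx[1] and GstD5[1] as well as Rh6[1]. Per the labels' protocols, chromatin was measured out by the weight of larval material, so animals were pooled. The series title names TCF where the antibody label names tango, and the name anti-tango used here follows that label. The list has 1 row per peak and no value per library, so the read depth is unknown, ChIP replicates could not be set against input replicates, and no value has a replicate error.

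Tango is a basic helix-loop-helix PAS protein that binds DNA as the common partner of factors such as Single-minded, Trachealess and Spineless, and in this way takes part in midline, tracheal and antennal development. TCF, also called Pangolin, is the DNA-binding factor of the Wingless pathway. Uextra holds short pieces of assembled sequence that could not be placed on a chromosome, joined end to end, and much of the sequence of this kind in flies is repeated DNA. A distance along Uextra therefore is a distance in the joined file, and where it crosses a join it has no meaning on a chromosome. Which distances cross a join could not be determined here. A peak score rises with the read enrichment that a peak caller finds over its background, and in the authors' list its scale is not stated.

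The narrow high-score peaks made up 26.9% of the 10412 peaks on Uextra, narrow peaks with a score below 100 made up 63.4% (6602 peaks), and peaks wider than 1000 bp made up 9.67% (1007 peaks). Scores of the high-score set ran from 100.06 to 1402.91, with a median of 119.55 and an interquartile range of 109 to 143, against a range of 6.64 to 99.92 and a median of 39.03 (20.4 to 74.6) for the low-score set. The narrow Uextra peaks of both sets had 3 modes of score. In bins of 10, the fullest bins were 10 to 20 with 1434 peaks, 100 to 110 with 805 peaks and 230 to 240 with 70 peaks. Between them the counts dropped to 432 peaks at 60 to 70 and to 38 peaks at 190 to 200. The limit of 100 thus cut through the middle mode, with 805 peaks in the bin above it and 798 in the bin below. Most of the high-score set belonged to the middle mode, since 2184 of its 2803 peaks (77.9%) scored below 150. Another 311 (11.1%) scored 200 to 300, and 27 scored at least 300.

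**Figure D1:**
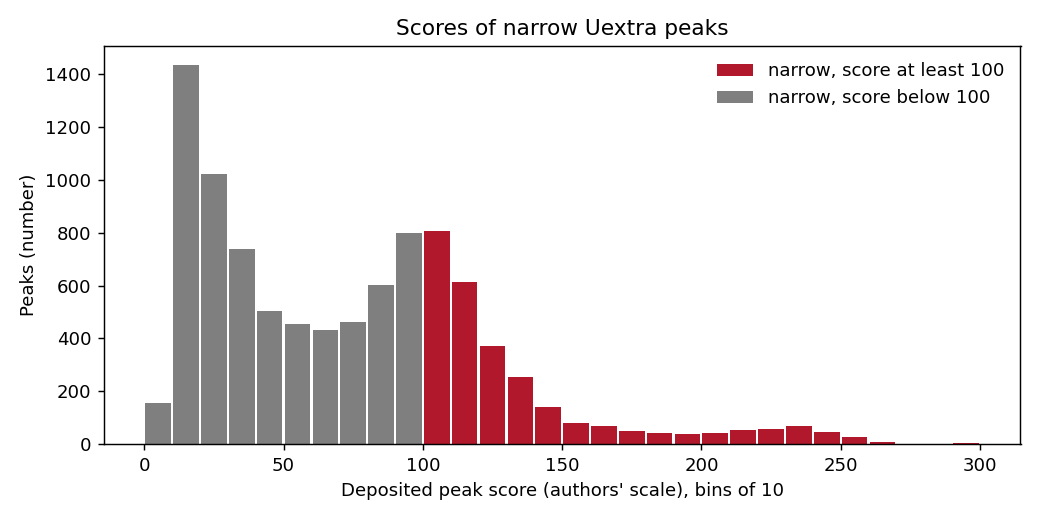
Number of narrow Uextra peaks (at most 1000 bp wide) per bin of 10 on the authors' score scale, with peaks of score at least 100 in red and the others in grey, up to a score of 300. The bins at 10 to 20 (1434 peaks), 100 to 110 (805 peaks) and 230 to 240 (70 peaks) are the 3 local maxima.

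The score values of the peaks on either side of the limits were close to each other. The lowest 5 scores of the high-score set were 100.06, 100.20, 100.46, 100.50 and 100.50, and the highest 5 of the low-score set were all 99.92. On the width side, the widest 5 members measured 996, 996, 995, 994 and 991 bp, and the next wider Uextra peaks with a score of at least 100 measured 1001, 1002, 1002, 1003 and 1003 bp. The peaks nearest to the width limit had scores of 102.23 to 137.74 inside it and 108.70 to 387.38 outside it.

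Exact scores recurred. The 2803 high-score peaks had 542 different scores, and 2462 of them (87.8%, 95% Wilson interval 86.6 to 89.0%) shared theirs, to both decimals, with another member. In the low-score set, which is larger and so offers more peaks to share with, the share was 87.0% (86.1 to 87.7%; 5741 of 6602 peaks). As few as 43 scores, each held by at least 20 peaks, covered 1571 members (56.0%), while 341 members (12.2%) had a score of their own. The largest set was the 54 peaks with a score of 108.70. It was followed by 52 peaks at 101.65, 50 at 105.74, and 49 each at 102.82, 103.98 and 106.92. Peaks of equal score were not copies of each other in width. The 54 peaks at 108.70 had 52 different widths from 460 to 991 bp, and the 52 peaks at 101.65 had 48 different widths from 385 to 932 bp. The peaks at 108.70 were also spread out, over 23 windows of 1 Mb between 2365791 and 27611658. The shortest distance between the centres of any of them was 13.0 kb. In other large sets this shortest distance ran from 2.6 kb, at a score of 114.68, to 22.9 kb, at 105.15.

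Up to a score of 150, the recurring scores formed a ladder with nearly even rungs. Counting only scores held by at least 5 narrow Uextra peaks, neighbouring rungs lay 0.57 to 0.60 apart between scores of 100 and 110, with a median of 0.59. The rungs widened with the score, to a median of 0.60 between 110 and 120, 0.62 between 120 and 130 and 0.64 between 130 and 150. Above that many rungs had under 5 peaks, and the steps between those that had 5 were uneven, with a median of 2.02 (0.66 to 8.45) between 150 and 200 and 1.52 (0.74 to 6.94) between 200 and 300. The ladder did not begin at the limit. Its median step was 0.57 between 90 and 100, 0.51 between 60 and 80 and 0.22 below 10, so both sets stood on the same progression. The share of recurring scores was likewise close on both sides of the limit, at 94.0% (92.2 to 95.5%) for the 805 peaks with scores of 100 to 110 and 93.4% (91.4 to 94.9%) for the 798 peaks with scores of 90 to 100. The rung just above the limit, 100.50, held 45 narrow peaks, and the rung just below it, 99.92, held 46. Higher up, fewer peaks were available per rung. The share was 84.7% between 130 and 150 (392 peaks), 71.2% between 150 and 200 (281 peaks) and 82.3% between 200 and 300 (311 peaks). All of the 27 peaks with a score of at least 300 had different scores.

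**Figure D2:**
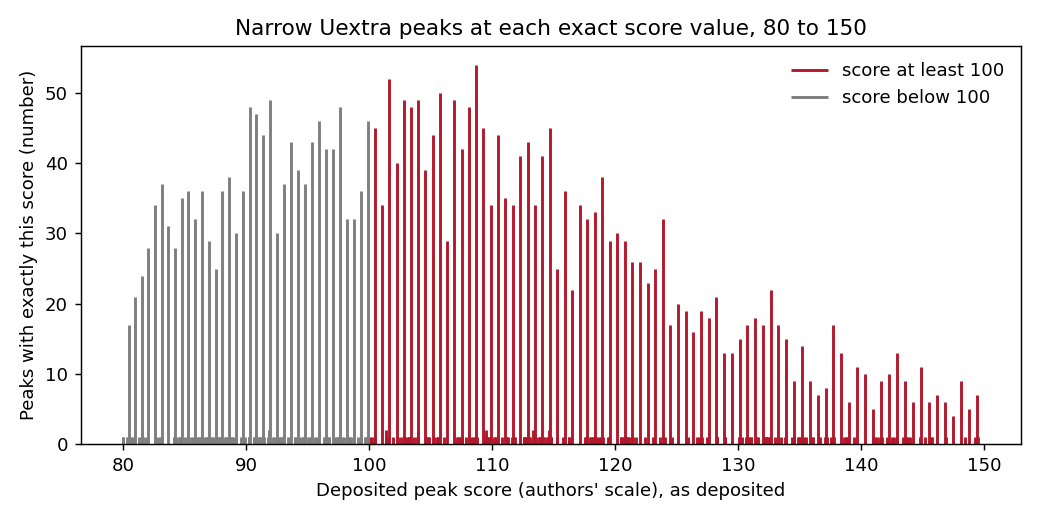
Number of narrow Uextra peaks at each exact deposited score between 80 and 150, on the authors' score scale, with scores of at least 100 in red and lower scores in grey. Tall lines stand 0.57 to 0.60 apart between 100 and 110, the tallest at 108.70 with 54 peaks, and the ladder runs on without a break below 100.

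Many scores of this set were also met outside it. Here any score of a narrow high-score Uextra peak counts, including those held by a single member, not only the rungs. Of the 526 Uextra peaks wider than 1000 bp with scores of 100 to 150, 516 (98.1%, Wilson interval 96.5 to 99.0%) had a score that a narrow high-score Uextra peak also had. The share was 91.7% (74.2 to 97.7%; 22 of 24) for narrow peaks of that score on U, the other unplaced collection, and 47.5% (32.9 to 62.5%; 19 of 40) for those on the 6 chromosome arms. Among the narrow high-score Uextra peaks themselves, 91.8% (90.6 to 92.9%; 2006 of 2184) of those below 150 shared a score with another member. No test was made of these differences, because the peaks of 1 list are not replicates.

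Width was part of the rule, so its values are a description. The median width of the high-score set was 699 bp (quartiles 628.5 and 773 bp), against 487 bp (346 and 617 bp) for the low-score set. Widths of 600 to 800 bp made up 62.2% of the high-score set and 23.9% of the low-score set. The width limit took more from the high-score side, where it left out 791 of 3594 Uextra peaks (22.0%), than from the low-score side, where it left out 216 of 6818 (3.17%). With wider peaks included, the medians were 735 bp (652 to 920 bp) and 495 bp (351 to 631 bp), and the interquartile ranges were of like size, at 267.5 and 280.0 bp. Among the narrow peaks, 68 high-score peaks (2.43%) and 2255 low-score peaks (34.2%) were under 400 bp. In the low-score set the share was between 7.16 and 9.86% in each 50 bp bin from 200 to 700 bp, whereas the high-score set had its fullest bins at 650 to 700 bp (18.8%) and 700 to 750 bp (18.2%). Across the limit the change was gradual: the median width was 687 bp at scores of 100 to 110, 676 bp at 90 to 100 and 644 bp at 80 to 90. Within the width limit, width and score had a Spearman's rho of 0.08 over 2803 high-score peaks and 0.72 over 6602 low-score peaks. Both are descriptions across peaks of 1 list, and width and score come from the same peak calling. The width limit left out 146 wider peaks beside 805 members at scores of 100 to 110, and 127 beside 373 at 120 to 130. At 140 to 150 it left out 37 beside 139, and at 220 to 230 it left out 35 beside 56. The limit thus tended to take a larger share at higher scores, though not evenly. How width goes with score above 100 when wider peaks are included was not tested. Members with scores of 200 to 300 had a median width of 735 bp (673 to 800 bp).

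Exact widths recurred too, without a dominant value. There were 593 different widths, and 2681 members (95.6%, 94.8 to 96.3%) had the width of another member. In the larger low-score set the share was 98.8% (98.5 to 99.1%; 6524 of 6602 peaks). Widths are whole numbers of at most 1000 bp, fewer than the 2803 members, so many members had to share one. The most frequent were 701 and 728 bp with 18 peaks each, 672 and 719 bp with 17 each, and 644 and 718 bp with 16 each. The 18 peaks of 701 bp had 17 different scores between 101.07 and 245.43. In the low-score set the most frequent width was 201 bp, with 57 peaks, the smallest width of that set.

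**Figure D3:**
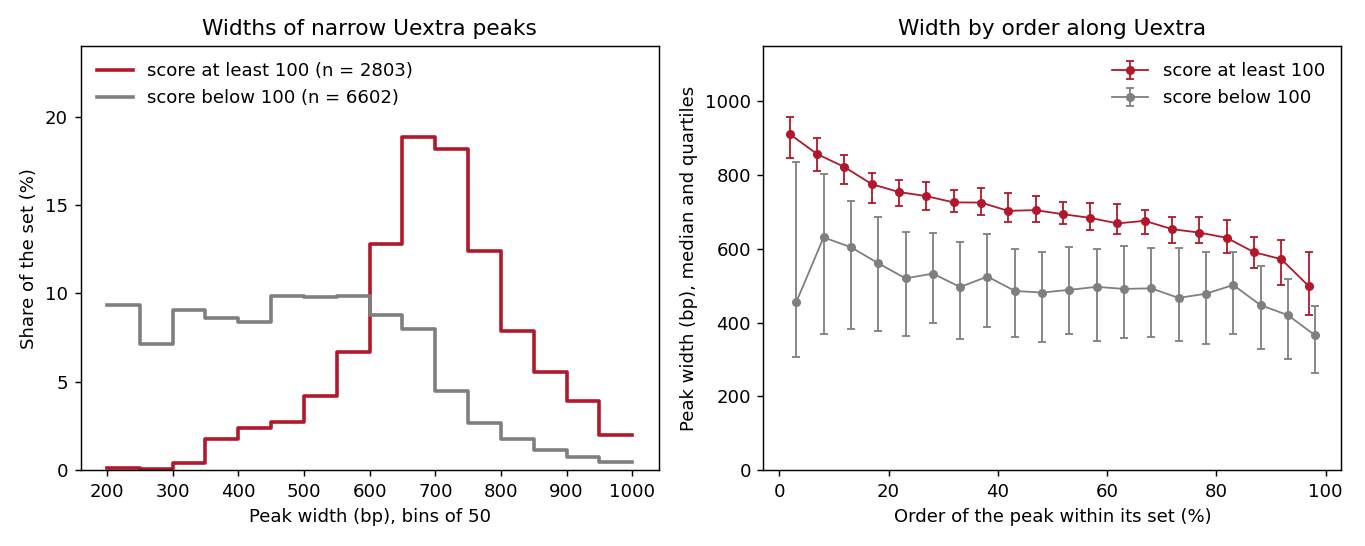
Left, share of narrow Uextra peaks per 50 bp bin of width, in red for the 2803 peaks of score at least 100 and in grey for the 6602 of lower score. Right, median width with quartiles (bars) in 20 blocks of consecutive peaks of each set, ordered along Uextra from 0 to 100% of the set, where the red medians run from 911 bp in the first block to 499.5 bp in the last.

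Width and score recurring together was less common. A further member had both the same width and the same score for 163 high-score peaks (5.82%, 5.01 to 6.74%), in 77 sets, of which 69 were couples, 7 were sets of 3 and 1 was a set of 4. In the low-score set it was 515 peaks (7.80%, 7.18 to 8.47%) in 253 sets, none above 3. The low-score set is larger and so offers each peak more others to share with, which limits a comparison of these shares. The set of 4 was 728 bp wide with a score of 105.74, at 9765251 to 9765978, 17781758 to 17782485, 20607147 to 20607874 and 22720444 to 22721171 of Uextra. The sets of 3 next to it in size were, among others, 583 bp with 109.29, 627 bp with 101.65, 649 bp with 103.98 and 660 bp with 112.88. In each of these sets the copies lay apart: the first 2 of the 627 bp set, for instance, began at 20340084 and 24300011. Sharing a score went with sharing a width only slightly. Of the 33319 couples of members with equal scores, 0.29% also had equal widths, against 0.24% of all 3927003 couples. In the low-score set the values were 0.36% of 76071 couples with equal scores and 0.17% of all couples.

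Widths of the high-score peaks ran down along Uextra. Spearman's rho between width and position was -0.64 over the 2803 high-score peaks and -0.21 over the 6602 low-score peaks. In 20 blocks of 140 or 141 consecutive members, the median width was 911 bp in the first block, 754 bp in the fifth, 705 bp in the tenth, 653.5 bp in the fifteenth and 499.5 bp in the last. Within a block the widths were close together, for example 672.5 to 744 bp between the quartiles of the tenth. In the low-score set the quartiles of the tenth block were 346.5 and 591.5 bp. Scores did not run along with position in the same way. Spearman's rho between score and position was 0.08 in the high-score set and 0.06 in the low-score set, and the block medians of the high-score set lay between 114.68 and 134.32, with the highest in the last block. The width limit acts on these values all along Uextra. Of the Uextra peaks with a score of at least 100, it left out 16.1% from 3 to 9 Mb, 22.3% from 9 to 21 Mb, 25.6% from 21 to 28 Mb and 9.22% from 28 to 29 Mb. These stretches do not cover the first 3 Mb, where the first block of members begins. There, wider peaks of any score were many beside the members, with 32 beside 4 from 0 to 2 Mb and 32 beside 35 from 2 to 3 Mb. With wider peaks included, the rho between width and position was -0.39 over 3594 peaks with a score of at least 100 and -0.20 over 6818 peaks of lower score. The median widths of the peaks with a score of at least 100 were then 847, 738, 672 and 528 bp in the same 4 stretches.

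The number of members also varied along Uextra. The first 2 Mb held 4 high-score peaks and 103 low-score peaks, so that 3.74% (1.46 to 9.22%) of its narrow peaks scored at least 100. From 3 to 9 Mb the share was 40.4% (37.8 to 43.0%; 546 high-score and 807 low-score peaks), and from 9 to 21 Mb it was 26.4% (25.1 to 27.7%; 1159 and 3239 peaks). It was 30.6% (28.9 to 32.3%) from 21 to 28 Mb. The higher share at 3 to 9 Mb came with fewer low-score peaks, at 134.5 per Mb against 269.9 from 9 to 21 Mb, while high-score peaks stood at 91.0 and 96.6 per Mb. Members with scores of 200 to 300 were 4.03% of the members at 3 to 9 Mb, 12.4% at 9 to 21 Mb and 13.8% at 21 to 28 Mb. The stretch from 28 to 29 Mb was the densest, with 187 high-score and 398 low-score peaks. Its members had a median width of 515 bp and a median score of 133.76. The stretches were chosen after the counts per Mb had been seen, and no test was made.

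Gaps to the nearest Uextra peak fell into separate groups. Measured from edge to edge, the gap had a median of 858 bp for high-score peaks (95% order-statistic interval 839 to 877 bp; range 50 to 12556 bp), against 556 bp (521 to 607 bp; range 50 to 84187 bp) for low-score peaks. For the high-score set, 31.1% of gaps were under 300 bp, 10.3% were 300 to 700 bp, 30.5% were 700 to 1200 bp, 3.25% were 1200 to 1500 bp and 11.0% were 1500 to 2000 bp. The fullest 100 bp bins were 100 to 200 bp (386 peaks), 800 to 900 bp (274 peaks) and 1600 to 1700 bp (87 peaks). Gaps of 500 to 600 bp (43 peaks) and 1300 to 1400 bp (20 peaks) were scarce between them. For the low-score set the bins were at 200 to 300 bp (1015 peaks) and 900 to 1000 bp (426 peaks), and 18.9% of gaps lay between 300 and 700 bp.

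**Figure D4:**
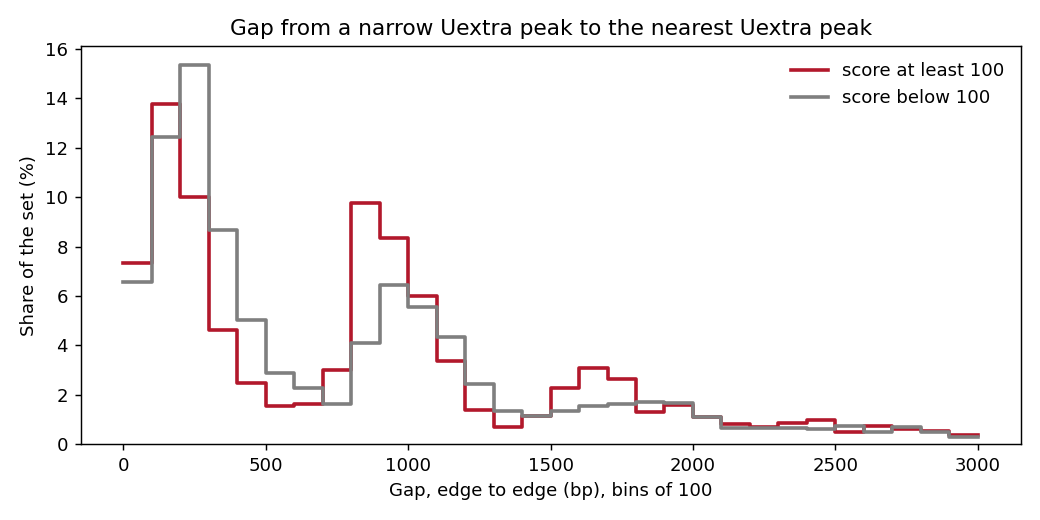
Share of narrow Uextra peaks per 100 bp bin of the edge-to-edge gap to the nearest Uextra peak of any kind, up to 3000 bp, in red for scores of at least 100 and in grey for lower scores. The red line is highest at 100 to 200 bp, 800 to 900 bp and 1600 to 1700 bp, and low at 500 to 600 bp and 1300 to 1400 bp.

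Within the same 200 bp range of width, the median gaps of both sets were close for peaks over 600 bp. For narrower peaks the high-score median was larger, though at 200 to 400 bp the intervals overlapped. Among peaks of 600 to 800 bp the median gap was 855.5 bp (838 to 877 bp) for 1744 high-score peaks and 841 bp (799 to 879 bp) for 1579 low-score peaks, and gaps of 300 to 700 bp made up 7.86% (6.68 to 9.21%) and 7.54% (6.33 to 8.94%). Among peaks of 800 to 1000 bp the medians were 1104.5 bp for high-score and 1123.5 bp for low-score peaks. Most low-score peaks were among the narrower ones. Below 600 bp the sets still differed in width within a range. At 350 to 400 bp lay 50 of 68 high-score but 567 of 2255 low-score peaks of the 200 to 400 bp range. At 550 to 600 bp lay 188 of 449 and 651 of 2498 peaks of the 400 to 600 bp range. How far this accounts for the larger high-score medians was not tested. At 400 to 600 bp the medians were 702 bp (586 to 790 bp) for 449 high-score peaks and 476 bp (425 to 551 bp) for 2498 low-score peaks, and at 200 to 400 bp they were 640 bp (483 to 791 bp) for 68 high-score peaks and 501 bp (469 to 534 bp) for 2255 low-score peaks. The share of gaps of 300 to 700 bp was close in both sets here too. It was 18.3% (15.0 to 22.1%) and 16.1% (14.7 to 17.5%) at 400 to 600 bp. At 200 to 400 bp it was 30.9% (21.2 to 42.6%) and 31.1% (29.3 to 33.1%). Within the high-score set the median gap was between 825 and 903.5 bp in each score range from 100 up to 300.

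Up to about 4000 bp, distances between members repeated at nearly regular steps. The numbers of couples of high-score peaks per 100 bp of centre-to-centre distance were highest at 800 to 900 bp (36 couples), 1600 to 1700 bp (67), 2300 to 2400 bp (47), 3000 to 3100 bp (47) and 3800 to 3900 bp (51). Those bins were each the fullest of a window of 700 or 800 bp, so the windows limit how far apart they can lie. Read without windows, as means over 3 bins that were higher than any other within 300 bp, the maxima of the high-score set were at 800, 1500, 2300, 3100, 3700, 4600 and 5400 bp (lower edge of the bin), in steps of 600 to 900 bp. The rule of 300 bp keeps neighbouring maxima apart, so it too limits the steps. From 4000 bp on, the high-score counts were 19 to 38 couples per bin, so the later maxima stood out less. In the windows, counts dropped to 11 couples at 1200 to 1300 bp, 13 at 1900 to 2000 bp and 21 at 2700 to 2800 bp. The low-score set had maxima at 700 to 800 bp (443 couples), 1500 to 1600 bp (374), 2300 to 2400 bp (281), 3200 to 3300 bp (261) and 3800 to 3900 bp (224), in steps of 600 to 900 bp. Read without windows, its maxima were at 700, 1500, 2300, 3100, 3900, 4800 and 5600 bp, in steps of 800 to 900 bp. A repeat of distances was thus present in both sets. In the high-score set the first maximum was lower than the second, and in the low-score set it was the highest. A centre-to-centre distance includes part of both widths, and width was part of the rule. Median widths were 699 bp in the high-score set and 487 bp in the low-score set. How far they account for this order of maxima was not tested. The windows and the rule for maxima were set after the distances had been seen.

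**Figure D5:**
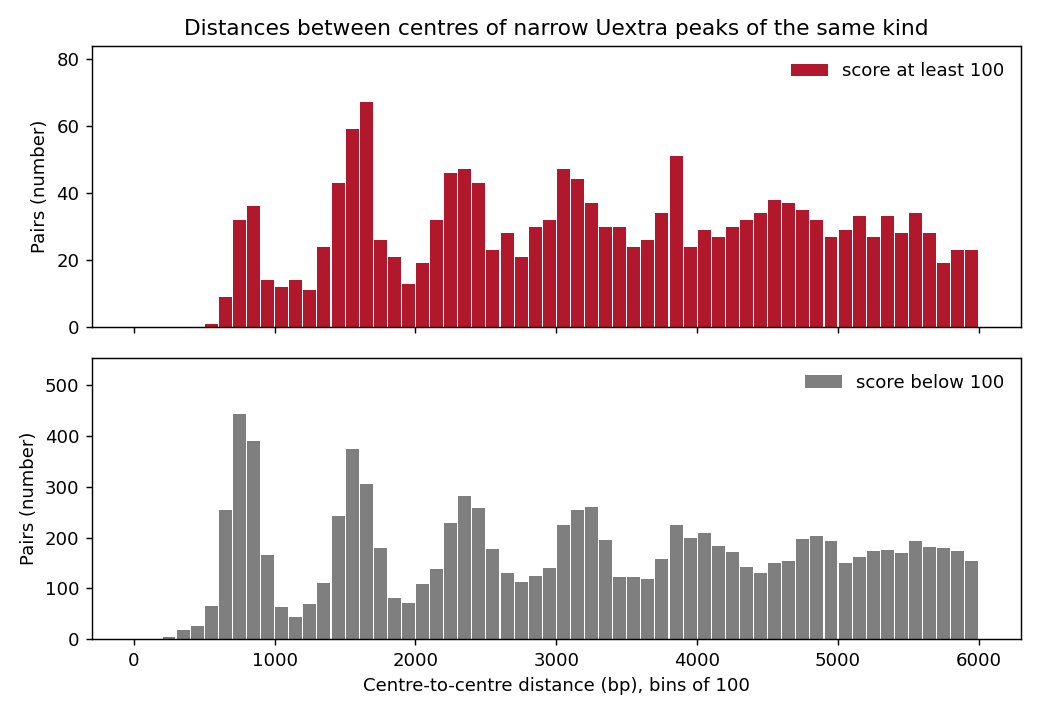
Number of couples of narrow Uextra peaks per 100 bp bin of centre-to-centre distance, up to 6000 bp, above for scores of at least 100 and below for lower scores, on separate linear scales. Both panels rise and fall repeatedly, in steps of 600 to 900 bp, and the fullest red bins of the first 5 rises hold 36, 67, 47, 47 and 51 couples. From 4000 bp on, the red bins vary less and hold 19 to 38 couples.

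Between 3 and 28 Mb, the commonest spacing of neighbouring Uextra peaks was shorter, or the same, in each stretch after the first, and the median width of the high-score peaks was smaller in each. From 3 to 9 Mb the fullest 50 bp bin of the distance between neighbouring centres, among distances of 300 to 1300 bp, was 850 to 900 bp (34 of 1476 couples), where the high-score peaks had a median width of 829 bp. From 9 to 15 Mb it was 800 to 850 bp (126 of 2215) with a width of 734 bp, and from 15 to 21 Mb it was 750 to 800 bp (181 of 2590) with a width of 696.5 bp. From 21 to 25 Mb it was again 750 to 800 bp (107 of 1803), with a width of 661.5 bp, and from 25 to 28 Mb it was 650 to 700 bp (94 of 1438) with a width of 604 bp. From 28 to 29 Mb the order did not hold, with the fullest bin at 900 to 950 bp (28 of 609) and a median width of 515 bp. At both ends, from 3 to 9 Mb and from 28 to 29 Mb, the fullest bin thus held few couples. The spacing counts all Uextra peaks, the members among them. A distance between centres includes part of both widths, so spacing and width are not separate observations.

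As nearest neighbours, high-score peaks had a share close to their share of all Uextra peaks, whichever set the neighbour belonged to. The nearest peak was another high-score peak for 26.5% of members (24.9 to 28.1%; 742 of 2803) and for 27.2% of low-score peaks (26.1 to 28.2%; 1793 of 6602), where high-score peaks made up 26.9% of all Uextra peaks. This closeness did not hold for a set limited to 600 bp in width. There the nearest peak was another member for 14.7% of 523 members (11.9 to 18.0%), where members made up 5.02% of Uextra peaks. The median score of the nearest peak was 77.8 (72.6 to 81.5) for high-score peaks and 79.4 (76.7 to 82.1) for low-score peaks. Directly successive high-score peaks formed 747 couples, of which 5 had identical scores. Among all couples of members, successive or not, 0.85% had identical scores, so the 5 were close to that share. With gaps of up to 300 bp, 175 members stood in runs, made of 83 couples and 3 runs of 3. One run of 3, at 9605793 to 9608255, had widths of 876, 672 and 724 bp and scores of 120.16, 103.40 and 102.23. The next, at 20852621 to 20854845, had 701, 730 and 655 bp with scores of 212.31, 111.68 and 104.57. The last, at 20883529 to 20885785, had 626, 661 and 599 bp with scores of 109.88, 125.73 and 121.39. No longer run was present.

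The 10 strongest members stood far above the rest and apart from the modes. The highest was at 13228875 to 13229770, 896 bp wide with a score of 1402.91. It was followed by peaks at 14377552 to 14378387 (836 bp, score 1321.31) and at 23558758 to 23559424 (667 bp, score 1314.06). The fourth lay at 8799800 to 8800504 (705 bp, 1265.97), the fifth at 3568706 to 3569385 (680 bp, 1233.76) and the sixth at 3322188 to 3322826 (639 bp, 1194.66). The seventh was at 4745214 to 4745821 (608 bp, 1039.10), the eighth at 5714784 to 5715352 (569 bp, 968.99), the ninth at 4290779 to 4291355 (577 bp, 967.87) and the tenth at 9874059 to 9874959 (901 bp, 953.33). After them came scores of 666.56 and 495.87. In width they were like the other members, from 569 to 901 bp with a median of 673.5 bp. Their nearest peaks were weak in most cases, with a median score of 17.4, and 7 of the 10 had a low-score narrow peak as nearest neighbour, near the 64.6% over all members. Of the 11 members with a score of at least 500, 6 lay between 3 and 9 Mb, where 546 of all 2803 members lay. The sequence at these positions was not analysed here.

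Uextra held 2803 of the 2983 narrow peaks with scores of at least 100 in the list (94.0%, 93.1 to 94.8%), where it held 75.8% of all peaks. Such peaks were 26.9% of the 10412 peaks on Uextra and 5.40% of the 3333 peaks elsewhere. The 130 on the chromosome arms had a median score of 188 and a median width of 596 bp, with quartiles of 531 and 716 bp. The 42 on U had a median score of 134 and a median width of 794 bp (586.5 to 932.5 bp). Against these, the Uextra peaks, with their medians of 119.55 and 699 bp, had the lowest median score and lay between both in width.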

How the data were processed

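The series holds 3 anti-tango ChIP and 3 input libraries, whose labels do not say whether replicates came from separate collections of larvae. The authors deposited 1 list of peaks with the first and last base and a score for each peak. Per the file headers, MACS called the peaks and positions follow FlyBase release 5. The submitters' processing notes name the build BDGP5 and, without roles, MACS2, BWA and CASAVA (versions 1.7.0.2 and 1.7.0.3). The threshold, the combination of replicates and the handling of reads with several map positions are not given in the sources used. Reads shared between repeat copies could change scores on Uextra. The authors' score has 2 decimals and no stated scale, so it was compared only within the list.

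Peaks were read with Python 3.11.15, pandas 2.3.3, numpy 2.4.6 and scipy 1.17.1, and figures drawn with matplotlib 3.10.9. Widths count both end bases. Scores or widths recur where they are exactly equal. Gaps run from edge to edge. Intervals are 95% Wilson intervals for shares and 95% order-statistic intervals for medians. They treat peaks as independent and cover counting error only. No test was made, because the list has no library values and the members were chosen by score and width. Counting steps were tested on simulated data. Peaks named are the 10 highest scores, the 5 on either side of each limit, and the largest sets of equal score, of equal width and score, and of close neighbours. The members and the lists were chosen with earlier results of these data known. Alternatives were a score limit of 200, a width limit of 600 bp, rounded scores, 10 bp width bins, merging within 100 bp and centre distances. No release 5 sequence or annotation was used.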

Additional observations from a re-analysis of the deposited data

How the results depend on the processing

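No paired analysis was possible because peaks carry no value per library, and for the same reason no replicate could be left out. With a score limit of 200, 338 peaks were left, with 75.7% recurring scores, 56.2% recurring widths, 0.59% recurring in both, a median gap of 823.5 bp, 3.55% with another member nearest and a median width of 734 bp. With a width limit of 600 bp, 523 peaks were left, and these values were 52.0%, 83.0%, 2.49%, 695 bp, 14.7% and 523 bp. With no width limit, an alternative chosen after seeing the data, the median width was 735 bp. The stricter score and width limits leave fewer peaks to share a value with, and members then made up 3.25% and 5.02% of Uextra peaks. The share with another member nearest was close to this at the score limit of 200 (3.55%, 2.04 to 6.10%). At the width limit of 600 bp it was above it (14.7%, 11.9 to 18.0%). Scores rounded to 1 decimal recurred in 91.2% of members. Widths in 10 bp bins recurred in 99.8% and, together with the score, in 38.5%. The median gap was 895 bp after merging within 100 bp and 1499.5 bp from centre to centre, which includes part of both widths. The other 8 values, 6 of them after merging, stayed within the interval or within 1.5 times the count. The score limit lies on a mode, so the number of members depends on it. Depth is unknown, which limits every score.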
